A study of Arabidopsis thaliana with 20 samples.

Results

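The SAUR genes (SMALL AUXIN UP RNA) of *Arabidopsis thaliana* encode short proteins, and many of their transcripts accumulate within minutes of auxin treatment. Here, 58 SAUR genes, chosen by gene identifier as members of the family, were followed among the 33557 genes of the deposited table, in imbibed seeds whose germination was or was not blocked. A further 20 genes of the table are annotated as SAUR genes and are described only at the end. The 58 genes were selected on FPKM values of the same 10 groups that are described here, seen in an earlier reading of the data, so that the counts over them are descriptions and were not tested.

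The best known SAUR proteins, those of the SAUR19 group, bind and inhibit PP2C.D phosphatases, which otherwise remove an activating phosphate from the proton pumps of the plasma membrane. An active pump acidifies the cell wall, which loosens it and lets the cell expand. DELLA proteins are repressors of gibberellin (GA) responses and of seed germination. In seedlings they bind transcription factors that promote elongation, several of which also act on SAUR genes.

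RNA was sequenced from seeds of a mutant of all 5 DELLA genes, named *Δdella*, which carries the alleles *gai-t6*, *rga-28*, *rgl1-Sk62*, *rgl2-Sk54* and *rgl3-3*, and of WT (Col-0), after 20 hr on Murashige and Skoog (MS) medium. Seeds of each genotype were exposed to 5 µM paclobutrazol (PAC), an inhibitor of GA synthesis, to PAC with 10 µM GA, to 0.7 mg/ml of an extract of medium in which *Pseudomonas aeruginosa* *PAO1* had grown (*PAO1* extract), or to the extract with 10 µM GA, or were left on MS alone. Each of the 10 groups had 2 biological replicates, which the authors pooled, so that a gene has 1 value per group, with no replicate spread. The test results of the authors' own comparisons were not used, and no test was run here. Values are FPKM, the number of sequenced fragments scaled to the length of the transcript and to the number of mapped fragments. All 5 alleles are carried together by *Δdella*, so that the loss of single DELLA genes cannot be told apart. Each library came from whole seeds, in which fewer cells of a type and less RNA per cell cannot be told apart.

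The table totals were 882351 to 988764 FPKM per group, and 12095 to 12791 genes were listed at 0. The genotype labels were checked on the 5 DELLA genes, whose FPKM was 1.99- to 42.1-fold lower in the mutant in each of the 25 pairs of gene and condition. The 8 markers of seed storage and late embryogenesis were above 0 in every group, the labelled tissue being imbibed seed. Among 4 photosynthesis genes, *LHCB2.1* was at 0 to 0.256 FPKM, whereas RBCS1A had 1153 to 1966 FPKM in the 10 groups. A gene was treated as expressed when its mean over the 10 groups was at least 1 FPKM, which held for 16828 genes. A difference is log2 of the ratio of FPKM + 1, which understates the change of low genes, and it was counted from 2-fold.

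Of the 58 SAUR genes, 17 were expressed (29.3%, against 50.1% of all genes in the table). A further 23 had some value above 0 but a lower mean, and 18 were listed at 0 in all 10 groups (31.0%, against 28.7% of all genes). The highest mean under the threshold was 0.956 FPKM for *SAUR1*, and the lowest above it was 1.74 FPKM for *SAUR30*. All 58 genes together summed to 702 to 725 FPKM in the *Δdella* groups. In WT seeds they summed to 315 FPKM on PAC, 678 on PAC and GA, 768 on extract, 728 on extract and GA and 755 on MS. Thus the sum in WT seeds on PAC was the lowest of the 10, and the next lowest was 678 FPKM.

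The sequences upstream of the gene start are shown for the 4 genes that differed most between PAC and MS in WT seeds (*SAUR11*, *SAUR37*, *SAUR8* and *SAUR4*) and for *SAUR33*, the only expressed member that was higher on PAC by at least 2-fold. Each is the 250 bases before the RefSeq gene start, read 5′ to 3′ on the strand of the gene in the TAIR10.1 assembly. *SAUR11* is at chr5:26470974-26471223 (plus strand), *SAUR37* at chr4:15194666-15194915 (minus strand) and *SAUR8* at chr2:7187010-7187259 (minus strand). *SAUR4* is at chr4:16596390-16596639 and *SAUR33* at chr3:22925492-22925741, both on the plus strand. Capitals mark matches to CATGCA on either strand, the core of the RY element bound by seed maturation factors, with overlapping matches run together.
SAUR11: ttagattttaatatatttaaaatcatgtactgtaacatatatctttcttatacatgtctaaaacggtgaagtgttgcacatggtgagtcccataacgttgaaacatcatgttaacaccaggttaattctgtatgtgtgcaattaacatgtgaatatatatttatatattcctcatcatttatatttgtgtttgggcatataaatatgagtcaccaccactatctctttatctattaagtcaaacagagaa
SAUR37: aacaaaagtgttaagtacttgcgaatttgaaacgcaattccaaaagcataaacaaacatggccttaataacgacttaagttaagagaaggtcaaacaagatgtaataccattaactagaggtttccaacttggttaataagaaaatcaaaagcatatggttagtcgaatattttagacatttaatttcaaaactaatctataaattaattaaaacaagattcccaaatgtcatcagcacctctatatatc
SAUR8: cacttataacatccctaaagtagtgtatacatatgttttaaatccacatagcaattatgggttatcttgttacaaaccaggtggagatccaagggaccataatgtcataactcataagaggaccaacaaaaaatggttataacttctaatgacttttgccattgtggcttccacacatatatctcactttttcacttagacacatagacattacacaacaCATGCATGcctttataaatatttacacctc
SAUR4: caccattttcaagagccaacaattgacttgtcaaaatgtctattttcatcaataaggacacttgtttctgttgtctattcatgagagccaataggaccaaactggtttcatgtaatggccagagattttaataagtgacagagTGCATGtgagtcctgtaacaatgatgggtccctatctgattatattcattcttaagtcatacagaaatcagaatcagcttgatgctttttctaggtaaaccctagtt
SAUR33: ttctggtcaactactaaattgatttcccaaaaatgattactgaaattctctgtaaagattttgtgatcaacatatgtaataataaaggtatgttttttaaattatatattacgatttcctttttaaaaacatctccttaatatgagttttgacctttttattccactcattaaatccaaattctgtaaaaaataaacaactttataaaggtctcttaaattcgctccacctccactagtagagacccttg

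TGTCTC, the auxin response element named from the promoters of auxin genes, was found in 0 of the 17 windows of expressed SAUR genes. It was found in 7 of the 41 windows of members under the expression threshold (17.1%). Among protein-coding genes it was found in 10.9% of all 27443 windows and in 10.6% of the 16311 windows of expressed genes. TGTCGG, a variant of it, was found in 0 of 17 windows and in 4.16% of all. CACGTG (the G-box) and CGTGCG (a brassinosteroid response element) were also found in 0 of 17, and in 6.49% and 1.57% of all windows. CATGCA was found in 2 of 17, in *SAUR8* and *SAUR4*, and in 8.43% of all windows. Counts over 17 windows are too small to set apart from the shares of all genes. Both strands were searched, and a match or its absence in these letters describes the window only.

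*SAUR78* (AT1G72430) and *SAUR3* (AT4G34790) were the most abundant members. *SAUR78*, whose protein interacts with ethylene receptors, had 197 FPKM on PAC, 213 on PAC and GA, 191 on extract, 195 on extract and GA and 212 on MS in *Δdella* seeds. In WT seeds it had 70.8 FPKM on PAC, 172 on PAC and GA, 171 on extract, 177 on extract and GA and 196 on MS. *SAUR78* was therefore lower on PAC in WT seeds than in any other group, among which it varied from 171 to 213 FPKM. *SAUR3* had 128 to 140.4 FPKM in *Δdella* seeds. In WT seeds it had 88.0 FPKM on PAC, 161 on PAC and GA, 192 on extract, 162 on extract and GA and 166 on MS. The values of *SAUR3* on PAC and MS in WT seeds differ by less than 2-fold on the FPKM + 1 scale.

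Below these came *SAUR11* (AT5G66260, mean 74.8 FPKM over the 10 groups), *SAUR4* (AT4G34800, 70.0), *SAUR5* (AT4G34810, 63.3), *SAUR37* (AT4G31320, 34.8), *SAUR33* (AT3G61900, 19.0), *SAUR50* (AT4G34760, 17.0), *SAUR49* (AT4G34750, 15.5) and *SAUR51* (AT1G75580, 13.1). With *SAUR32* (AT2G46690, 12.7) and *SAUR8* (AT2G16580, 11.5), 12 members had a mean of at least 10 FPKM and 5 had at least 50. Neighbours in this order cannot be ranked, since the groups carry no replicate spread. The 5 members with the highest means held 67.7% (WT on PAC) to 81.9% (*Δdella* on MS) of the summed FPKM of the 58 genes. FPKM is scaled to gene length, but the interval in the table is short for *SAUR4* (285 bases), *SAUR5* (318 bases) and *SAUR11* (390 bases), and the RefSeq gene can be longer (729 bases for *SAUR4*). Levels compared between members depend on these lengths, whereas a gene compared between groups does not.

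**Figure D1:**
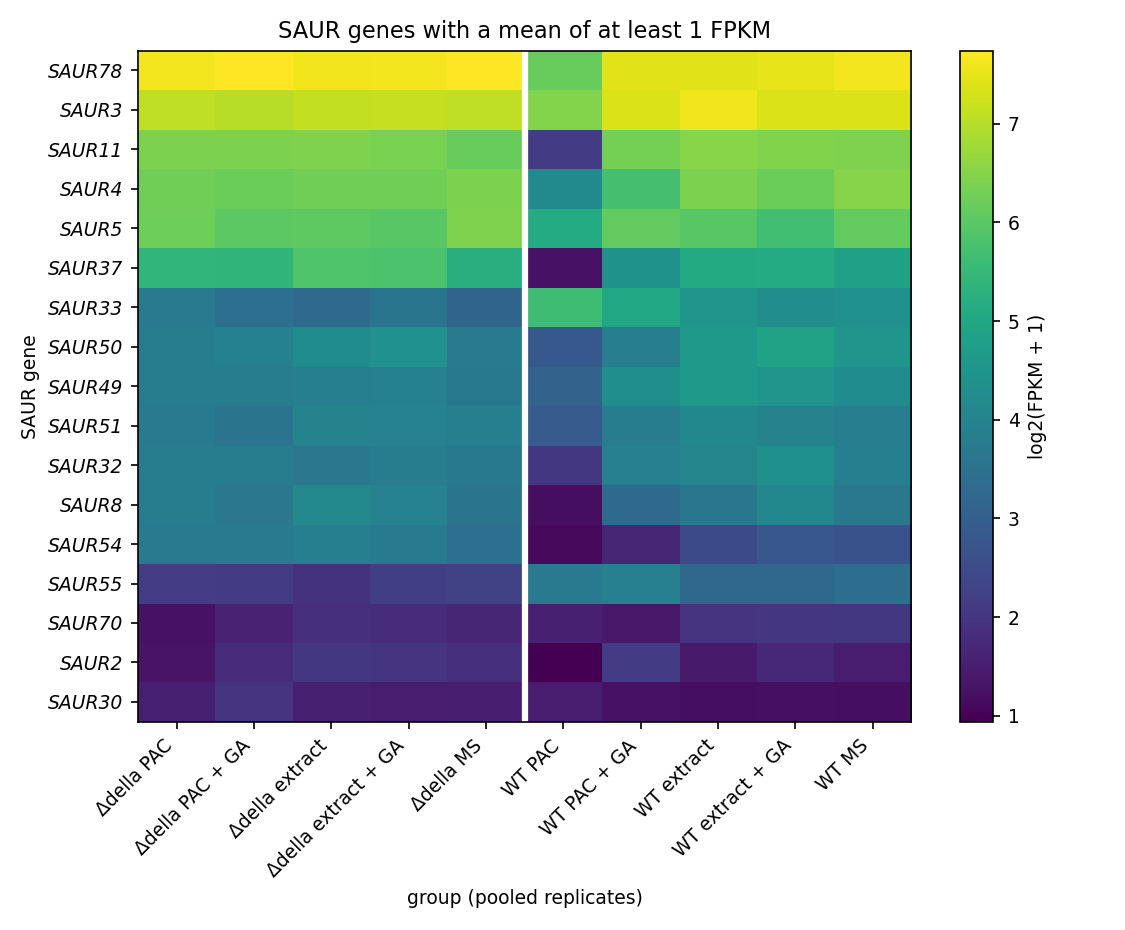
FPKM of the 17 expressed SAUR genes (rows, ordered by mean) in the 10 groups (columns, Δdella left and WT right), coloured as log2(FPKM + 1). The column of WT seeds on PAC holds the lowest value of 13 of the 17 rows, *SAUR11* among them (3.40 FPKM), whereas *SAUR33* is highest there (48.7 FPKM).

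Many SAUR genes lie side by side. Within gaps of at most 15000 bases, 31 of the 58 members fell into 6 arrays of at least 3. Only 1 array, on chromosome 4 between 16577404 and 16599421 (TAIR10), held expressed members, namely *SAUR49*, *SAUR50*, *SAUR2*, *SAUR3*, *SAUR4* and *SAUR5*, with *SAUR1* just under the threshold. The other 5 arrays held 0 expressed members. Outside the arrays, 11 of 27 members were expressed. These included *SAUR11* (chr5:26471269-26471658), *SAUR37* (chr4:15193993-15194562), *SAUR78* (chr1:27264911-27265630), *SAUR33* (chr3:22925813-22926379) and *SAUR54* (chr1:6852155-6852872).

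**Figure D2:**
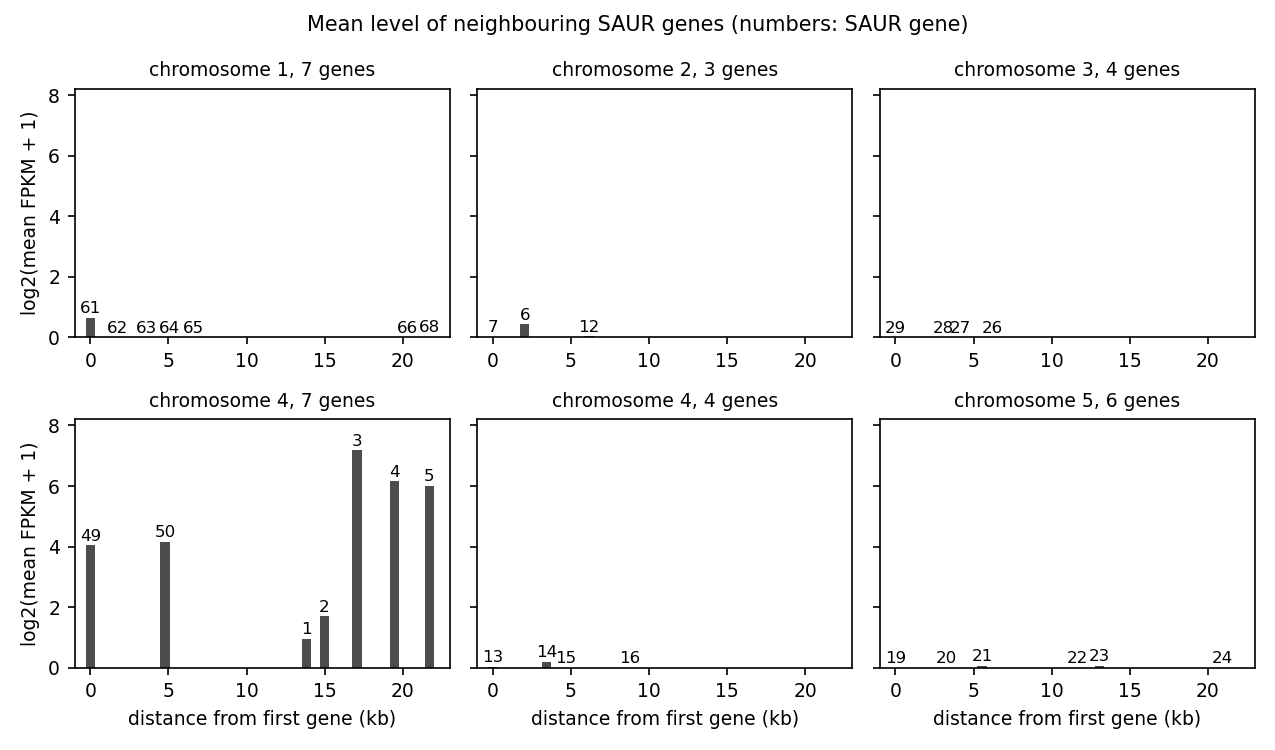
Mean FPKM over the 10 groups (bars, as log2(mean FPKM + 1)) of the members of the 6 arrays, 1 panel each, by distance from the first gene of the array in kb (horizontal axis). Of the 31 members, the 6 above the threshold all belong to the chromosome 4 array of 22.0 kb.

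The array on chromosome 5 is the SAUR19 group, *SAUR19* to *SAUR24* (AT5G18010 to AT5G18080), whose proteins promote hypocotyl elongation. *SAUR19*, *SAUR20*, *SAUR22* and *SAUR24* were listed at 0 in all 10 groups, and the highest mean of the array was 0.0505 FPKM. The copies are close to each other. The first 120 coding bases of 3 of them are shown because reads of 50 bases cannot always be placed in 1 copy, with capitals at the bases that differ from *SAUR19*, of which *SAUR20* has 8 and *SAUR24* has 1.
SAUR19: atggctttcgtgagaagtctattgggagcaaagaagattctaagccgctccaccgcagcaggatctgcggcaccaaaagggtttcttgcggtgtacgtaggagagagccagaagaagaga
SAUR20: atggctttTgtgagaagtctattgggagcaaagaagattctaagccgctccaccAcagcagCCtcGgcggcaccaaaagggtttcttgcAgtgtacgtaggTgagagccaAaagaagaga
SAUR24: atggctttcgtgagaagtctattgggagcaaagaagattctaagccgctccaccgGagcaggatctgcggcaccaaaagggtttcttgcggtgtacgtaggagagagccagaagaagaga

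*SAUR19* spans chr5:5962773-5963405 (minus strand), *SAUR20* chr5:5966183-5966785 (minus strand) and *SAUR24* chr5:5983683-5984308 (plus strand) in TAIR10.1. Of the 50-base windows of their RefSeq exons, 18.5% (*SAUR19*), 5.83% (*SAUR20*) and 7.11% (*SAUR24*) occur elsewhere in the genome. The other windows occur only once, and how far the shared windows bear on the zeros was not tested. By the same count 16 of the 17 expressed members have no shared window, and *SAUR8* has 4.03%. The others listed at 0 in every group were *SAUR10*, *SAUR15*, *SAUR16*, *SAUR25*, *SAUR26*, *SAUR27*, *SAUR28*, *SAUR29*, *SAUR40*, *SAUR62*, *SAUR63*, *SAUR64*, *SAUR65* and *SAUR66*. *SAUR15* is the gene first known as *SAUR-AC1*, and *SAUR63* promotes elongation of hypocotyls and stamen filaments.

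The first comparison asks how the followed members differed under a block of GA synthesis. On PAC against MS in WT seeds, 9 of the 17 members were at least 2-fold lower and 1 was at least 2-fold higher, where 4.2% of the 16828 genes were lower and 2.82% higher. The median difference of the members was -1.15 on the log2 scale, against 0.00 for all genes. WT seeds on PAC had the lowest value of the 10 groups for 13 of the 17 members, which is so for 32.1% of all genes.

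*SAUR11* differed most. It had 3.40 FPKM on PAC against 84.3 on MS in WT seeds, 24.8-fold less (log2 difference -4.28). With GA added to PAC it had 78.4 FPKM, and it had 91.2 on extract and 86.0 on extract and GA. The *Δdella* groups had 82.8 (PAC), 83.9 (PAC and GA), 84.9 (extract), 81.6 (extract and GA) and 71.0 FPKM (MS). Thus *SAUR11* was low in WT seeds on PAC alone, and its other 9 values lie between 71.0 and 91.2 FPKM.

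*SAUR37* had 1.40 FPKM on PAC against 27.6 on MS in WT seeds, 19.7-fold less (log2 difference -3.57). Its other WT values were 20.3 FPKM on PAC and GA, 33.1 on extract and 34.1 on extract and GA. In *Δdella* seeds it had 41.3 FPKM on PAC, 41.1 on PAC and GA, 57.5 on extract, 55.0 on extract and GA and 36.1 on MS. All 5 *Δdella* values of *SAUR37* thus exceed all 5 WT values, and the WT value on PAC stands apart from the other 4.

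*SAUR8* had 1.29 FPKM on PAC against 11.7 on MS in WT seeds (9.06-fold less, log2 difference -2.47), and 8.53 on PAC and GA, 11.2 on extract and 16.3 on extract and GA. In *Δdella* seeds it had 13.0 FPKM on PAC, 11.4 on PAC and GA, 16.5 on extract, 14.5 on extract and GA and 10.8 on MS. The table gives *SAUR8* the same interval as the overlapping gene AT2G16575 (chr2:7184422-7186968), and it is not stated whether counting used strand, so that reads of the pair may be shared. *SAUR4* had 17.0 FPKM on PAC against 89.7 on MS in WT seeds (5.27-fold less, log2 difference -2.33), 51.8 on PAC and GA, 82.6 on extract and 73.5 on extract and GA. Its *Δdella* values were 73.0 to 83.6 FPKM. Both genes were again lowest in WT seeds on PAC, and both had their next lowest value in WT seeds on PAC and GA.

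*SAUR32*, which affects the apical hook when overexpressed, had 3.13 FPKM on PAC against 13.6 on MS in WT seeds (log2 difference -1.83). *SAUR50*, which promotes cotyledon opening in light, had 6.02 FPKM on PAC against 21.5 on MS (log2 difference -1.68). *SAUR54* (AT1G19830) had 1.15 against 5.28 FPKM (log2 difference -1.55). Of these, *SAUR54* was near 1 FPKM on PAC, where the scale understates its difference most. *SAUR78* (log2 difference -1.45) and *SAUR49*, with 7.60 FPKM on PAC against 18.1 on MS (log2 difference -1.15), complete the 9. The next members, *SAUR51* and *SAUR5* (-0.97 each) and *SAUR3* (-0.91), lie just under the 2-fold limit. *SAUR51* had 6.42 FPKM on PAC against 13.5 on MS, which is 2.11-fold less before 1 is added.

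*SAUR33* went the other way. It had 48.7 FPKM on PAC, 31.6 on PAC and GA, 21.4 on extract, 18.7 on extract and GA and 19.7 on MS in WT seeds, so that PAC was 2.47-fold above MS (log2 difference 1.26). In *Δdella* seeds it had 12.2 FPKM on PAC, 9.73 on PAC and GA, 8.79 on extract, 11.0 on extract and GA and 7.74 on MS. It is the only expressed member with its highest value in WT seeds on PAC (31.8% of all genes have theirs there). The remaining 4 members differed little between PAC and MS in WT seeds, with log2 differences of 0.34 for *SAUR55* (AT5G50760), 0.26 for *SAUR30* (AT5G53590), -0.51 for *SAUR70* (AT5G20810) and -0.54 for *SAUR2* (AT4G34780).

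**Figure D3:**
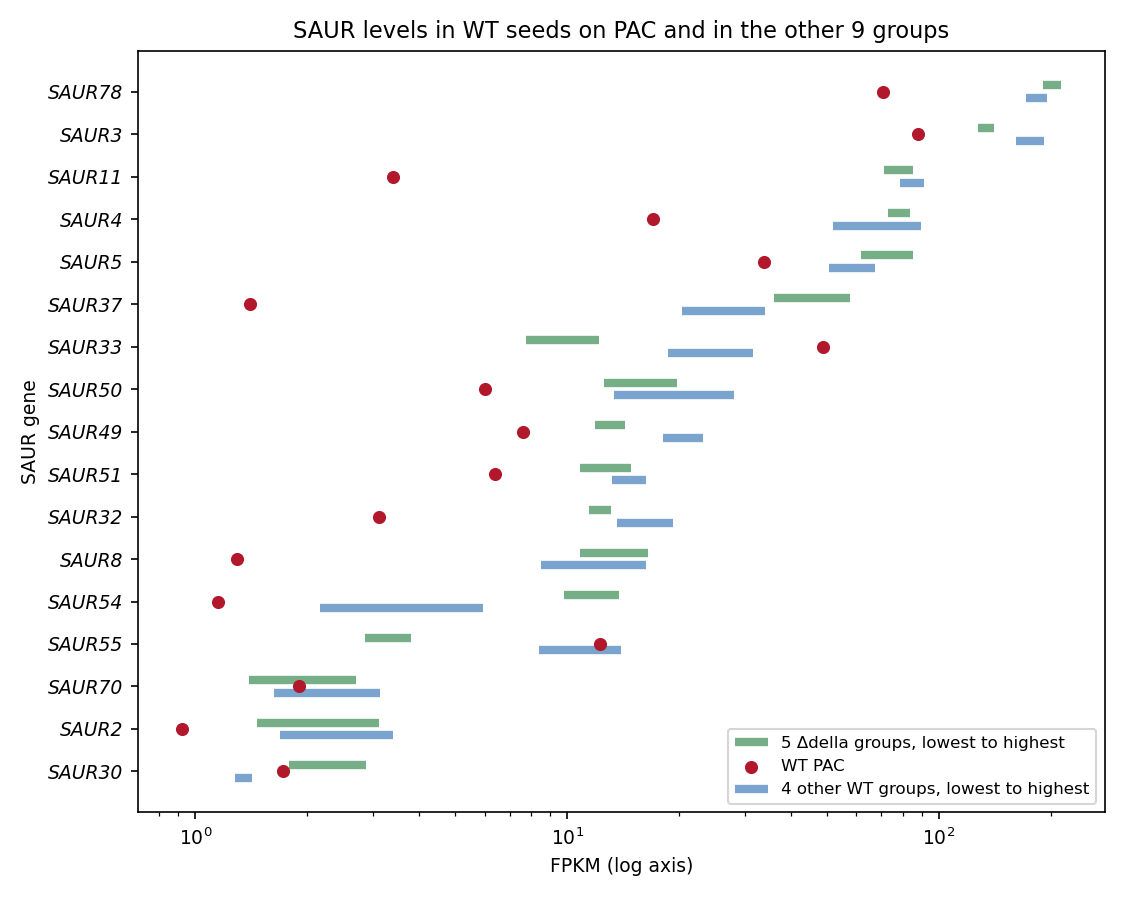
FPKM (horizontal log axis) of the 17 expressed SAUR genes (rows), with a bar from the lowest to the highest of the 5 Δdella groups, a point for WT seeds on PAC and a bar over the other 4 WT groups. The points of *SAUR11* (3.40 FPKM) and *SAUR37* (1.40 FPKM) lie far left of both bars, and that of *SAUR33* (48.7 FPKM) lies to their right.

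In *Δdella* seeds, 0 of the 17 members were past 2-fold on PAC against MS in either direction, where 0.273% of genes were lower and 0.339% higher. The median of the members was 0.02, and the differences ran from -0.56 (*SAUR2*) to 0.59 (*SAUR33*). *SAUR11* had 82.8 FPKM on PAC against 71.0 on MS (log2 difference 0.22), and *SAUR37* had 41.3 against 36.1 (0.19). The difference between the responses of the genotypes was not tested. Few genes of any kind passed 2-fold in these seeds, so that the count of 0 is near the background.

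Markers of the seed were read in the same groups. The 8 storage and late embryogenesis markers summed to 96.9 to 208 FPKM in the *Δdella* groups. In WT seeds they summed to 8864 FPKM on PAC, 1482 on PAC and GA, 2845 on extract, 460 on extract and GA and 842 on MS, and all 8 were at least 2-fold higher on PAC than on MS. *EPR1*, a marker of the endosperm, had 360 to 451 FPKM in *Δdella* seeds, and 1201 on PAC against 932 on MS in WT seeds. RBCS1A had 1966 FPKM on PAC against 1475 on MS in WT seeds, and the other 3 photosynthesis genes had at most 16.6 FPKM in every group. Their part in the SAUR values was not tested.

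The next comparison asks how far GA restored the levels in seeds on PAC. On PAC and GA against PAC in WT seeds, 9 of the 17 members were at least 2-fold higher and 0 were lower, where 2.94% of genes were higher and 1.64% lower. The median of the members was 1.03. This comparison shares the WT group on PAC with the one above. *SAUR11* was 23.1-fold higher with GA, *SAUR37* 14.5-fold, *SAUR8* 6.59-fold, *SAUR32* 4.43-fold and *SAUR4* 3.05-fold. *SAUR2*, with 3.41 FPKM on PAC and GA against 0.919 on PAC (log2 difference 1.20), was among the 9 but not among those lower on PAC. *SAUR54* was the reverse, with 2.16 FPKM on PAC and GA against 1.15 on PAC (log2 difference 0.56) and 5.28 on MS.

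On PAC and GA against MS in WT seeds, 0 members were past 2-fold (0.333% of genes lower and 0.44% higher), with a median of -0.04. The differences ran from -0.99 (*SAUR54*) to 0.66 (*SAUR2*), and *SAUR4* was at -0.78 and *SAUR33* at 0.65. In *Δdella* seeds, GA with PAC against PAC put 0 of 17 past 2-fold (0.285% of genes lower and 0.273% higher), and so did PAC and GA against MS (0.261% in each direction). Such counts of 0 are near the shares of all genes.

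The same question was asked of the *PAO1* extract, and there the expressed SAUR genes of WT seeds lay near their MS levels. On extract against MS in WT seeds 0 of 17 members were past 2-fold (0.44% of genes lower and 0.891% higher), with a median of 0.01 and a range of -0.19 (*SAUR78*) to 0.34 (*SAUR49*). The genes that differed most between PAC and MS had 91.2 against 84.3 FPKM (*SAUR11*), 33.1 against 27.6 (*SAUR37*), 11.2 against 11.7 (*SAUR8*) and 82.6 against 89.7 (*SAUR4*) on extract and on MS. On extract against MS in *Δdella* seeds the count was also 0 (0.499% lower and 0.725% higher), with a range of -0.38 (*SAUR5*) to 0.66 (*SAUR37*). The median of the members was 0.16 there, with 12 members above 0 and 5 below. GA added to extract in WT seeds put 0 of 17 past 2-fold against extract alone (0.784% lower and 0.44% higher), with a range of -0.29 (*SAUR5*) to 0.50 (*SAUR8*), and in *Δdella* seeds also 0 (0.184% lower and 0.398% higher). Extract and GA against MS put 0 past 2-fold in *Δdella* seeds (0.362% lower and 0.826% higher) and 0 in WT seeds (0.719% lower and 0.636% higher). Few genes of any kind passed 2-fold in these extract comparisons, so that each count of 0 is near the background. The storage markers were higher on extract than on MS in WT seeds (2845 against 842 FPKM, 4 of 8 past 2-fold), in the group in which the sum of the 58 SAUR genes was 768 against 755 FPKM.

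**Figure D4:**
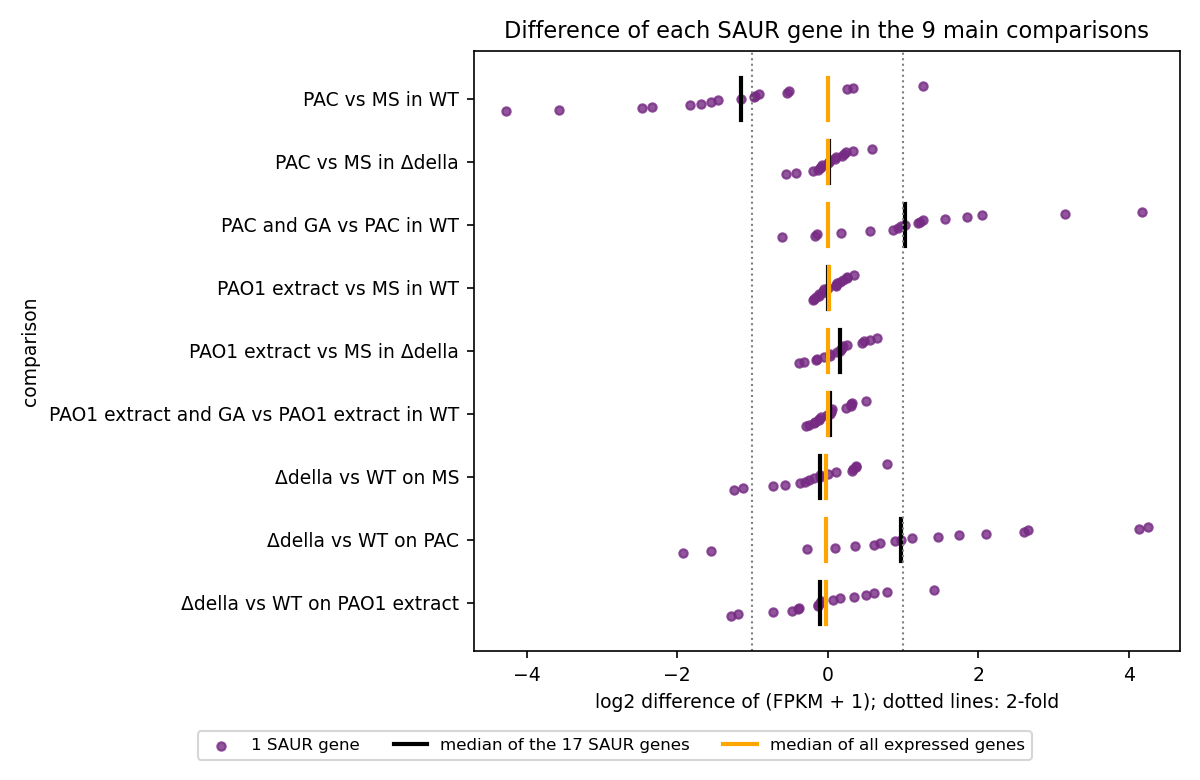
Difference on the log2(FPKM + 1) scale of the 17 expressed SAUR genes (points) in the 9 main comparisons (rows), with a black bar at their median, an orange bar at the median of all 16828 expressed genes and dotted lines at 2-fold. In the row of PAC against MS in WT seeds the points run from -4.28 (*SAUR11*) to 1.26 (*SAUR33*). Those of the rows of extract against MS, in WT and in Δdella seeds, lie between -0.38 and 0.66.

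The last comparisons set *Δdella* against WT seeds on the same medium. On MS, 2 of 17 members were at least 2-fold lower in *Δdella* seeds and 0 were higher, where 1.76% of genes were lower and 3.68% higher. The 2 were *SAUR33*, with 7.74 against 19.7 FPKM (log2 difference -1.25), and *SAUR55*, with 3.81 against 9.49 FPKM (-1.13). *SAUR54* came next in size, and was higher in *Δdella* seeds, with 9.80 against 5.28 FPKM (0.78).

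On PAC, 8 of 17 members were at least 2-fold higher in *Δdella* than in WT seeds and 2 were lower, where 9.47% of genes were higher and 5.54% lower. *SAUR37* had 41.3 against 1.40 FPKM (29.4-fold more), *SAUR11* 82.8 against 3.40 (24.4-fold more) and *SAUR54* 12.6 against 1.15 (11.0-fold more). *SAUR33* had 12.2 against 48.7 FPKM and *SAUR55* 3.55 against 12.3. This comparison rests on the same WT group on PAC as the earlier ones.

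On extract, *SAUR33* (log2 difference -1.19) and *SAUR55* (-1.29) had less transcript in *Δdella* than in WT seeds and *SAUR54* (1.42) had more, each past 2-fold, where 2.16% of genes were lower and 3.84% higher. On PAC and GA the counts were 2 lower and 1 higher (2.47% and 4.4% of genes), and on extract and GA 1 lower and 0 higher (0.909% and 2.44% of genes). *SAUR55* had 3.55 (PAC), 3.33 (PAC and GA), 2.86 (extract), 3.64 (extract and GA) and 3.81 FPKM (MS) in *Δdella* seeds, against 12.3, 14.0, 8.41, 8.40 and 9.49 FPKM on these media in WT seeds. *SAUR54* had 12.6, 12.5, 13.8, 12.6 and 9.80 FPKM in *Δdella* seeds, against 1.15, 2.16, 4.53, 5.93 and 5.28 FPKM in WT seeds. For *SAUR33* and *SAUR55* all *Δdella* groups lie below all WT groups (18.5% of all genes do so), and for *SAUR30*, *SAUR37* and *SAUR54* all lie above (18.0% of all genes). Neither count of members is above the share of all genes. For *SAUR30* the lowest *Δdella* value was 1.79 FPKM and the highest WT value, on PAC, was 1.72 FPKM.

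Other genes of the auxin pathway were taken from lists of its parts and compared on PAC against MS in WT seeds, where 4.2% of all expressed genes were lower and 2.82% higher. Here 0 of 6 expressed auxin receptors and 0 of 5 activating ARFs, the transcription factors of the auxin response, were past 2-fold. Of 20 expressed Aux/IAA genes, whose proteins repress ARFs, 2 were lower, *IAA7* (0.0424 against 1.56 FPKM) and *IAA16* (9.77 against 24.1). Of 5 expressed GH3 enzymes, which conjugate auxin to amino acids, 3 were lower, *GH3.1* (2.16 against 8.65 FPKM), *GH3.5* (9.42 against 21.7) and *GH3.6* (4.83 against 21.1). The counts in the other direction were 0 for each of these lists.

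Of 5 expressed genes of auxin synthesis, *TAA1* (2.34 against 7.00 FPKM) and *YUC3* (0.154 against 1.52) were lower on PAC than on MS in WT seeds. Of 8 expressed carriers, the efflux carriers *PIN2* (5.27 against 30.6 FPKM) and *PIN7* (3.52 against 18.7) and the influx carrier *AUX1* (7.61 against 31.8) were lower. Thus the lower genes include some of those listed for synthesis, transport and conjugation of auxin, and *YUC3* was low in both groups. The lists were chosen with earlier results of these data known. At the step on which SAUR proteins act, 1 of 9 PP2C.D phosphatases was higher, AT5G02760 (10.8 against 3.36 FPKM). Of 8 expressed plasma membrane proton pumps, 1 was lower, *AHA2* (64.6 against 171 FPKM). Of 7 expressed growth transcription factors, 1 was lower, *PRE6* (0.852 against 2.99 FPKM). The Aux/IAA, synthesis, phosphatase, pump and transcription factor lists, of 5 to 20 genes, had 1 or 2 members past 2-fold. These counts are too small to set apart from the share of all genes. None of the pathway lists had a member past 2-fold on PAC against MS in *Δdella* seeds, where 0.273% of genes were lower and 0.339% higher. The same held on extract against MS in WT seeds, where 0.44% of genes were lower and 0.891% higher. With so few genes of any kind past 2-fold, these counts of 0 are near the background.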

How the data were processed

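Transcripts of 20 seed libraries in 10 groups were measured. Per the study's methods, single-end reads of 50 bases were aligned by TopHat to TAIR10, and Cuffdiff (Galaxy) pooled the replicates. The submitters' processing notes also name bcl2fastq. The sources used here do not give versions, the annotation release, the Cuffdiff normalization or the use of strand. The deposited FPKM values are the authors' pooled value for each gene and group, so the depth is unknown and no interval or test is given. The deposited log2 fold changes, test statistic, p-values and q-values of the authors' own comparisons were not used.

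Samples were grouped by their labels. Differences are log2 of FPKM + 1 in one group over FPKM + 1 in the other, for genes with a mean of at least 1 FPKM, and were counted from 2-fold, in 17 comparisons of which 9 were main. The members and gene lists were chosen with earlier results of these data known. Members were named by rule: the 10 with the highest mean, the 3 highest and 3 lowest differences in each main comparison, the SAUR19 group, and those at 0 in every group; of other lists, genes past 2-fold on PAC or extract in WT seeds and the 5 DELLA genes. Alternatives were a pseudocount of 0.1, no filter, a minimum of 5 FPKM, median-of-ratios scaling and limits of 1.5- and 3-fold.

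Locus intervals are those of the table with 1 added to the start (TAIR10). Gene names, sequences and 50-base windows came from RefSeq (TAIR10.1). Python 3.11.15, numpy 2.4.6, pandas 2.3.3 and matplotlib 3.10.9 were used, and the counting of calls was tested on simulated data.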

Additional observations from a re-analysis of the deposited data

How the results depend on the processing

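The total counts of members past 2-fold, lower and higher together, in the 9 main comparisons stayed within 1.5 times their values with a pseudocount of 0.1, no filter, a minimum mean of 5 FPKM, median-of-ratios scaling and, chosen after seeing the data, all 21 expressed genes annotated as SAUR. The counts by direction moved more. With no filter, 3 members were higher on PAC against MS in WT seeds (1 with the filter), 2 were lower on PAC and GA against PAC in WT seeds (0 with it) and 4 were lower in *Δdella* against WT seeds on PAC (2 with it). With all genes annotated as SAUR, 4 were lower in *Δdella* against WT seeds on PAC, 1 was higher on MS (0 of the 17) and 2 were higher on extract (1 of the 17), and 2 were higher on PAC against MS in WT seeds. With a limit of 1.5-fold, 1 member passed on PAC against MS in *Δdella* seeds (0 at 2-fold), 1 on extract against MS in *Δdella* seeds (0 at 2-fold), 4 in *Δdella* against WT seeds on MS (2 at 2-fold) and 6 in *Δdella* against WT seeds on extract (3 at 2-fold). With a limit of 3-fold, 6 members passed on PAC against MS in WT seeds (10 at 2-fold), 4 on PAC and GA against PAC in WT seeds (9 at 2-fold) and 0 in *Δdella* against WT seeds on MS (2 at 2-fold) or on extract (3 at 2-fold). No paired analysis was possible because the deposited values are pooled over the replicates and carry no replicate number, and leaving out single replicates was not run for the same reason. Differences between genes near 1 FPKM rest on few reads of unknown number.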

Other observations

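RefSeq annotates 20 further genes of the table as SAUR genes, of which 4 were expressed. *SAUR74* had 9.01 FPKM on PAC against 3.06 on MS in WT seeds (log2 difference 1.30), and 3.16 against 1.70 in *Δdella* seeds. *SAUR43* was listed at 0 on PAC against 2.41 FPKM on MS in WT seeds, and had 5.85 to 12.4 FPKM in the *Δdella* groups. *SAUR77* had 27.0 FPKM on PAC against 14.7 on MS in WT seeds (0.83), and *SAUR44* had 16.2 against 11.0 (0.52). The 21 expressed genes together had 10 lower and 2 higher past 2-fold on PAC against MS in WT seeds, which was counted after seeing the data.

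Of the members under the expression threshold, 3 reached 1 FPKM in some group, and the following were named after their values were seen. *SAUR36*, known for promoting leaf senescence, had at most 0.0505 FPKM in *Δdella* seeds, against 2.13 on PAC, 0.174 on PAC and GA, 0.462 on extract, 0.0617 on extract and GA and 0.154 on MS in WT seeds. *SAUR59* had 0.170 to 0.396 FPKM in *Δdella* seeds, against 2.99 on PAC, 0.953 on PAC and GA, 1.75 on extract, 0.436 on extract and GA and 0.636 on MS in WT seeds. Both were thus highest on PAC in WT seeds, as was *SAUR33* among the expressed members.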
